A study of Bubalus bubalis with 8 samples.

Results

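The 8 arrays of this study of heat-stressed buffalo mammary epithelial cells (MECs) were divided between 2 glass slides, and the comparison described here sets the 4 arrays of slide 2 against the 4 arrays of slide 1. Slide 2 held the 30 min, 2 h, 4 h and 16 h arrays, and slide 1 held the control (CTR), 8 h, 12 h and 24 h arrays. A probe was counted when its log2 values on all 4 arrays of a slide lay above those on all 4 arrays of the other slide. Of 43653 probes outside the control spots, 12487 were bright enough to be tested, and 3469 of these separated the slides. All 4 slide 2 arrays were higher at 1536 probes (12.3% of those tested), all 4 slide 1 arrays were higher at 1933 (15.5%), and the slides overlapped at 9018.

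MECs were grown from buffalo mammary gland, used at passage 10 and seeded in collagen-treated plates. CTR cells stayed at 37 °C. The other cells were held at 42 °C for 1 h, returned to 37 °C and harvested by trypsin after 30 min or 2, 4, 8, 12, 16 or 24 h. Cy3-labelled RNA of each condition went onto 1 bovine oligonucleotide array, so every condition has 1 array and the arrays of a slide are not replicates of each other. Precision is limited by the number of arrays, the rule itself fixes the direction of each counted probe, and no p-value is given.

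Slide, scan and recovery time are tied to each other in this layout. Each slide had its own scan, the 3 earliest harvests were all on slide 2, and 16 h was the slide 2 array whose neighbours in time, 12 h and 24 h, were both on slide 1. A difference between slides, between scans, between culture states of the cells and, in part, between times cannot be told apart. The only array of unheated cells, CTR, was on slide 1, so heating was tied to slide in part as well. In RNA from a whole culture, fewer cells of a type and less RNA per cell cannot be told apart either.

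In the lactating gland, luminal epithelial cells secrete caseins, whey proteins and fat globules, and they sit among adipocytes, vessels and resident immune cells, with contractile myoepithelial cells around them on a basement membrane. When mammary epithelial cells are moved to a flat culture surface, milk protein genes are known to fall and actin stress fibres form. Spreading of cells on a stiff surface is also known to raise targets of YAP, a transcription coactivator, and of serum response factor. The genes were therefore read in lists called tissue lists and culture lists. Tissue lists held milk protein, milk fat, leukocyte and other immune, red blood cell, endothelial, adipocyte, luminal epithelial and immediate early genes. Culture lists held collagen, basement membrane, myoepithelial and basal, cytoskeletal, YAP target, IGF binding protein, cell cycle and cholesterol synthesis genes. Myoepithelial genes were thus placed in a culture list, although such cells are part of the gland. Heat shock and housekeeping genes stood in neither kind.

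Genes were read through 60-base probes of a bovine array. The first 30 bases are shown for the probes of 9 genes on which the account turns, 5 higher on slide 2 (the milk protein genes CSN1S1, LALBA and PAEP, the leukocyte gene LAPTM5 and the lipid carrier FABP4) and 4 higher on slide 1 (the keratin KRT8, the basement membrane collagen COL4A1, the actin-binding TPM1 and the YAP target CYR61). These 9 were picked after their values had been seen.
CSN1S1: tcattctctgacatccctaatcccattggc
LALBA: taaagtaggaattaactactggttggccca
PAEP: ctggggcctcctgcttggggccgctcctcc
LAPTM5: caccaacaccccttgtgctactgctttgtg
FABP4: aatggatgacgtttgcatcgaactccatga
KRT8: ctttcgcccatgaccccacctaaaagccaa
COL4A1: gcaattaggcaggtcaagctgtagtttcat
TPM1: agctgagtttgcggagaggtcagtaactaa
CYR61: tcaggtgttttaagactgaatgtttttatt
On the bovine build HGSC Btau 3.1 named in the file headers, the probe of CSN1S1 lies at chr6:88307237-88307296, that of LALBA at chr5:34387982-34388545, that of PAEP at chr11:107171376-107171429, that of LAPTM5 at chr2:126807761-126807820 and that of KRT8 at chr5:30005397-30005456, all on the plus strand. The probe of FABP4 lies at chr14:41955301-41955360, that of COL4A1 at chr12:82951471-82951530, that of TPM1 at chr10:47343149-47344653 and that of CYR61 at chr3:62039586-62039645, all on the minus strand. The spans of LALBA and TPM1 are longer than the 60 bases of a probe, and that of PAEP is shorter. The exon or untranslated region that each probe lies in was not analysed here. Over all probes, the median GC content was 45% among those higher on slide 2 and 43.3% both among those higher on slide 1 and among those tested.

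Levels below are log2 signals relative to the 75th percentile of the same array, so 0 means a signal at that percentile. At the dim end, many probes of an array (from 18612 at 2 h to 25284 at 16 h) share 1 lowest level. On slide 1 (CTR, 8 h, 12 h, 24 h) it was -2.52, -2.69, -3.36 and -2.10, and on slide 2 (30 min, 2 h, 4 h, 16 h) -3.50, -4.31, -4.07 and -2.41. Genes below are given in the same order of arrays. The lowest levels of 30 min, 2 h and 4 h thus lay below every lowest level of slide 1, and values at them have no order between arrays. Where a gene was not well above background on any array of a slide, or on some arrays of it, its fold is given as "at least", against a mean in which each dim array stands at its own detection limit or, if higher, at its measured level. A probe that could be tested only because it was bright on 1 slide was likely to differ, and 539 of the 1536 probes higher on slide 2 and 777 of the 1933 higher on slide 1 were of that kind. Among the 9569 probes well above background on both slides, 997 were higher on slide 2 and 1156 on slide 1.

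In the median over pairs, the arrays were closer within a slide than between slides. Pearson's r of levels was taken across tested probes, a description over probes that share each array's labelling and scan. It ran from 0.90 to 0.98 within slide 1, from 0.85 to 0.98 within slide 2 and from 0.72 to 0.86 between slides. The medians were 0.92, 0.90 and 0.80. The ranges overlapped, since 30 min with 16 h, both on slide 2, had 0.85 and 4 h with 24 h, on different slides, had 0.86. The median gap between the lower edge of the high side and the upper edge of the low side was 0.37 among probes higher on slide 2 and 0.34 among those higher on slide 1. The mean difference was at least 2-fold at 934 and 1154 probes and at least 3-fold at 590 and 523 probes, respectively. A moderated test (limma, Benjamini-Hochberg at 5%), which takes the 4 conditions of a slide as replicates, called 1120 probes higher on slide 2 (8.97%) and 1512 on slide 1 (12.1%), and 1063 and 1412 of these were among the separated probes. Of all separated probes 44.3% were higher on slide 2, against 61.1% under normexp, another background correction. Many probes were near the border, since 634 counted probes had a gap under 0.1 and 773 probes missed the count by an overlap under 0.1.

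**Figure D1:**
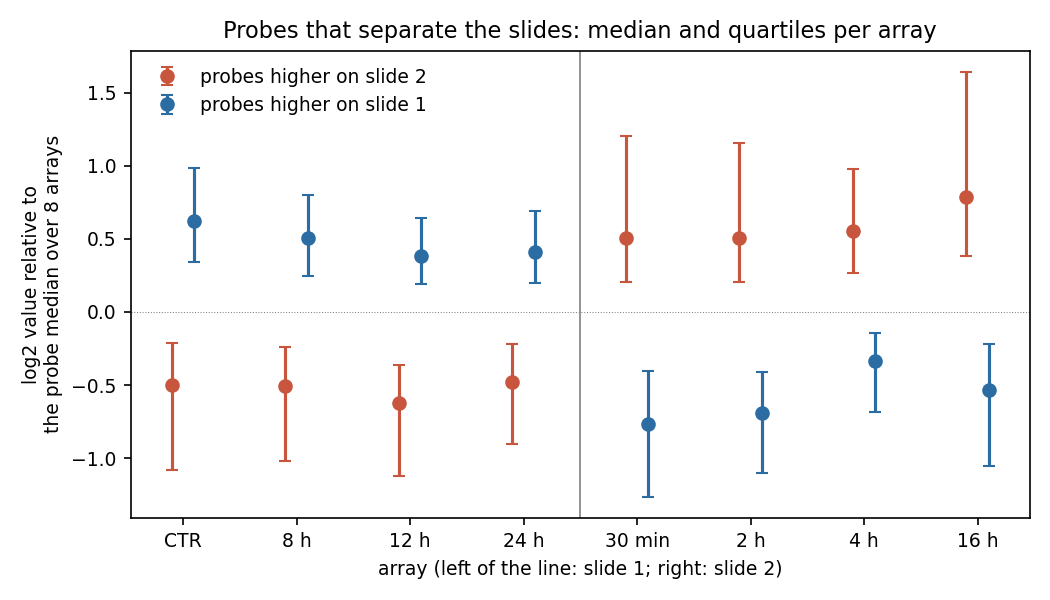
Median (points) and quartiles (bars) of the log2 value on each array, relative to the probe's own median over 8 arrays, for the 1536 probes higher on slide 2 and the 1933 higher on slide 1. The rule fixes the order of the slides. Within slide 2, 16 h had the highest median of the first set (0.79), and within slide 1, CTR had the highest median of the second set (0.63).

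Several features of single arrays stood beside these counts. At 30 min the scanner intensities and the deposited log2 values did not match (Pearson's r 0.58, against 1.00 for each of the other 7), so the deposited log2 values were used. CTR held a dark patch of 1900 probe positions, 546 of them tested, while 16 h held 295 such positions, 24 h 20, 2 h 11 and the other arrays 0. The share of probes higher on slide 1 changed along the array, from 22.2% in spot rows 1 to 106 to 10.7% in rows 427 to 532, and the share higher on slide 2 went from 7.61% to 13.4%. With a local position trend removed from each array, an alternative added after the rows had been seen to differ, those shares were 20.3% and 17.3% for slide 1, and 17.3% and 17.6% for slide 2. Of the counted probes, 92.1% of those higher on slide 2 and 84.5% of those higher on slide 1 still separated the slides after that step.

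**Figure D2:**
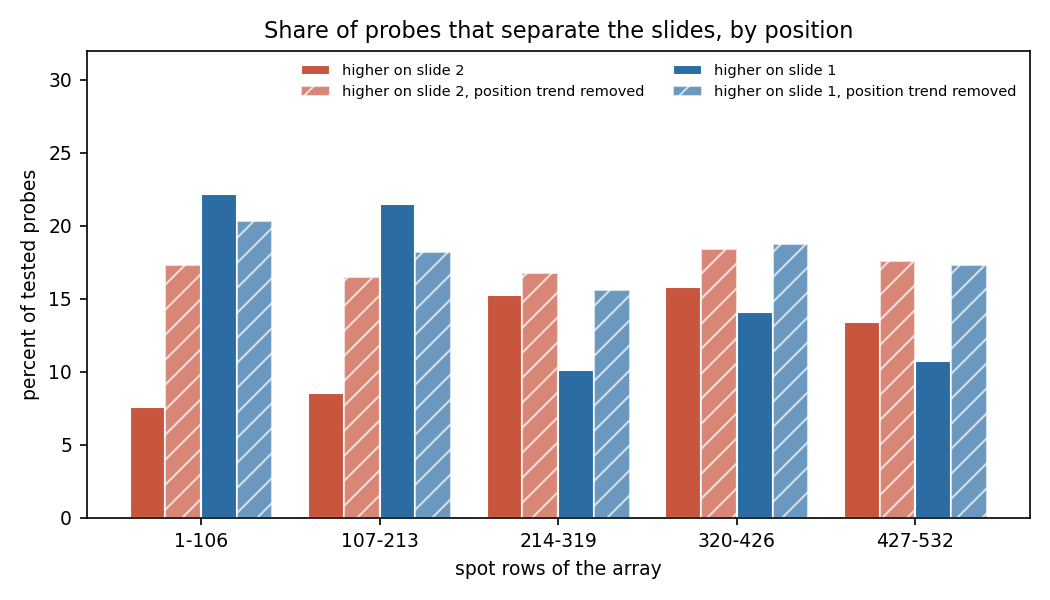
Percent of tested probes that separated the slides in 5 bands of spot rows, for probes higher on slide 2 and higher on slide 1, as deposited (solid) and with a local position trend removed (hatched). As deposited, the share higher on slide 1 lay between 10.1% and 22.2%, and with the trend removed between 15.6% and 20.3%.

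Read by gene name, with the brightest probe standing for each gene, 1105 of 8381 tested genes (13.2%) were higher on slide 2 and 1209 (14.4%) on slide 1. Where genes had further tested probes, 253 of 558 such probes separated the slides the same way for genes higher on slide 2 and 15 the opposite way. For genes higher on slide 1, 214 of 448 did so, and 5 went the opposite way. Of the 114 tested genes of the tissue lists, 54 (47.4%) were higher on slide 2 and 9 on slide 1. Among the 67 of these genes that were well above background on both slides, 23 (34.3%) were higher on slide 2 and 5 on slide 1, beside 11.3% and 11.1% of the 6655 genes of that kind on the whole array. Of the 122 tested genes of the culture lists, 33 (27.0%) were higher on slide 1 and 17 on slide 2, and 29 and 17 of the 106 that were well above background on both slides.

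**Figure D3:**
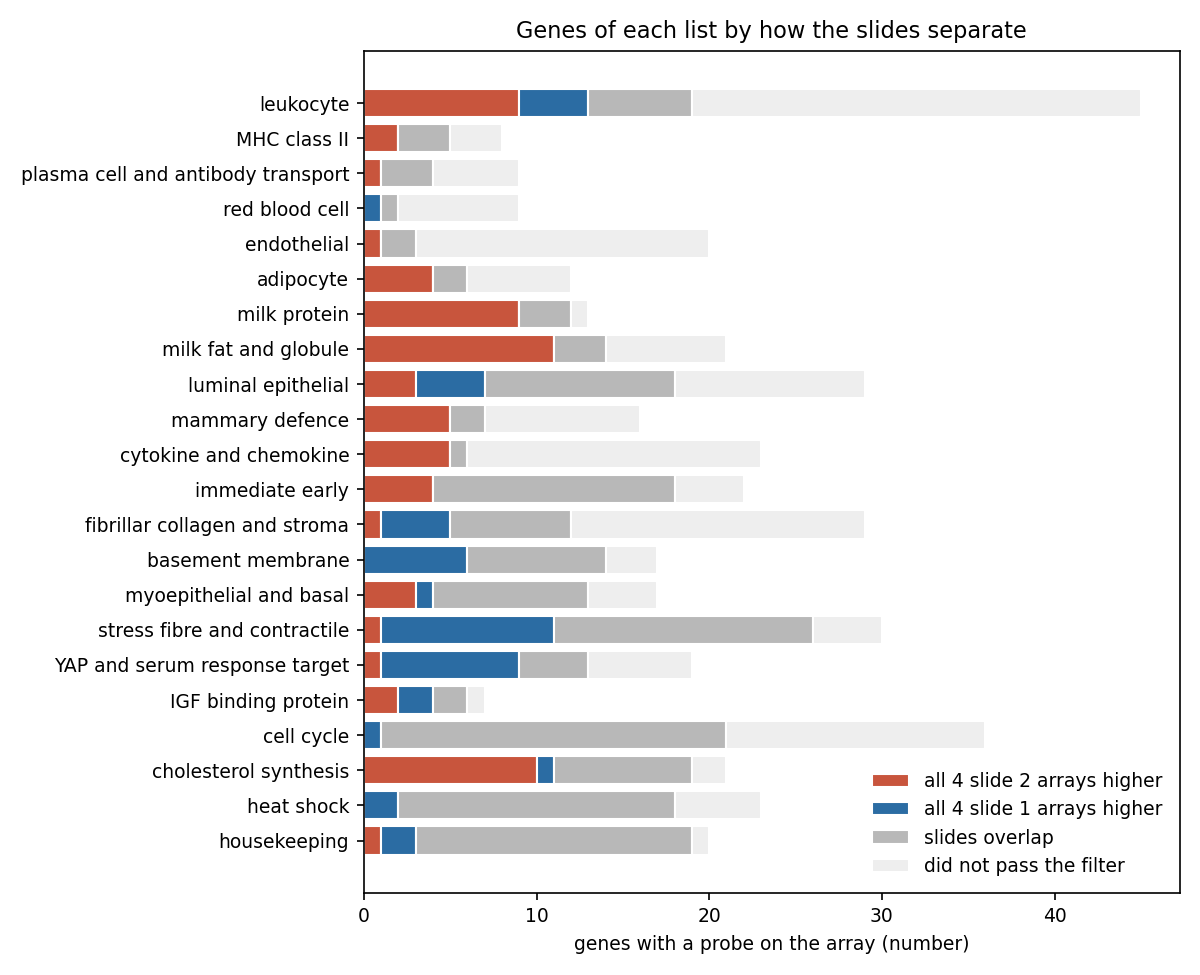
Number of genes of each list with all 4 slide 2 arrays higher, all 4 slide 1 arrays higher, overlapping slides, or a brightest probe that did not pass the filter. Milk protein (9 and 0 genes) and milk fat genes (11 and 0) lay toward slide 2, stress fibre genes (1 and 10) and YAP targets (1 and 8) toward slide 1, and cholesterol synthesis genes (10 and 1) toward slide 2.

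Milk protein genes were higher on slide 2. Of 12 tested genes of that list, 9 separated in that direction and 0 in the other, and the remaining 3 (LPO, LYZ and SPP1) overlapped. Only 4 of the 12 were well above background on both slides, with 2 of these, CSN2 and MUC1, higher on slide 2. The median difference of those 4 was 1.56 on the log2 scale, beside -0.02 over all probes well above background on both slides. The level of CSN1S1, which encodes alpha-S1-casein, was the lowest of the array on all of slide 1 (-2.52, -2.69, -3.36 and -2.10), and was 3.23, 2.26, 7.26 and 8.44 on slide 2. All 4 slide 2 arrays measured it and no slide 1 array did, a difference of at least 54.5-fold, and its 5 other tested probes separated the same way.

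The level of LALBA, encoding the whey protein alpha-lactalbumin, was also at the lowest level on the 4 slide 1 arrays, and was 1.52, 0.35, 7.10 and 7.89 on slide 2, at least 25.8-fold higher on slide 2. PAEP, the gene of the whey protein beta-lactoglobulin, had levels of -1.89, -1.83, -1.09 and -1.66 on slide 1 and of 6.67, 5.30, 7.50 and 8.20 on slide 2. None of the slide 1 arrays was well above background, so slide 2 was at least 168-fold higher, with 1 array saturated. CSN2, encoding beta-casein, was measured on all 8 arrays, with levels of 2.22, 1.99, 2.04 and 2.28 on slide 1 and of 3.37, 2.70, 6.63 and 7.96 on slide 2. Its slide 1 arrays spanned little and its mean was 8.2-fold higher on slide 2, most of it from 4 h and 16 h. CSN3 (kappa-casein), at the lowest level on all of slide 1, had levels of 3.64, 3.83, 5.85 and 7.37 on slide 2, and LTF, encoding the iron-binding milk protein lactoferrin, was at least 66.2-fold higher on slide 2.

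Milk fat genes followed the same order of slides. Of 14 tested genes 11 were higher on slide 2 and 0 on slide 1, and of the 7 that were well above background on both slides, 4 were higher on slide 2. FABP3, a fatty acid carrier of milk-secreting cells, had levels of -0.64, -1.69, -2.27 and -2.10 on slide 1 and of 1.36, 0.82, 7.19 and 6.31 on slide 2, at least 21.0-fold higher. LPL, the lipase that frees fatty acids from circulating fat, was at the lowest level on all 4 slide 1 arrays and had levels of 1.43, 1.25, 4.12 and 2.79 on slide 2, at least 7.3-fold higher. The fatty acid receptor gene CD36 was at least 11.2-fold higher, and ACSL1, which activates fatty acids, was at least 12.2-fold higher, with 1 of the 4 slide 1 arrays measuring it. The list of genes higher on slide 2 also held the lipogenic enzymes FASN, SCD and ACSS2, the regulators SREBF1 and INSIG1, the lipid droplet gene PLIN2 and AGPAT6.

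Within slide 2 the milk genes were not level. In 8 of the 9 milk protein genes and in 8 of the 11 milk fat genes, both 4 h and 16 h lay above both 30 min and 2 h, and in 0 of either list was the order the opposite. Over all 1105 genes higher on slide 2, 437 had 4 h and 16 h above 30 min and 2 h, and 245 had the opposite order. The median difference of the 9 milk protein genes, 30 min and 2 h minus 4 h and 16 h, was -4.26 on the log2 scale.

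**Figure D4:**
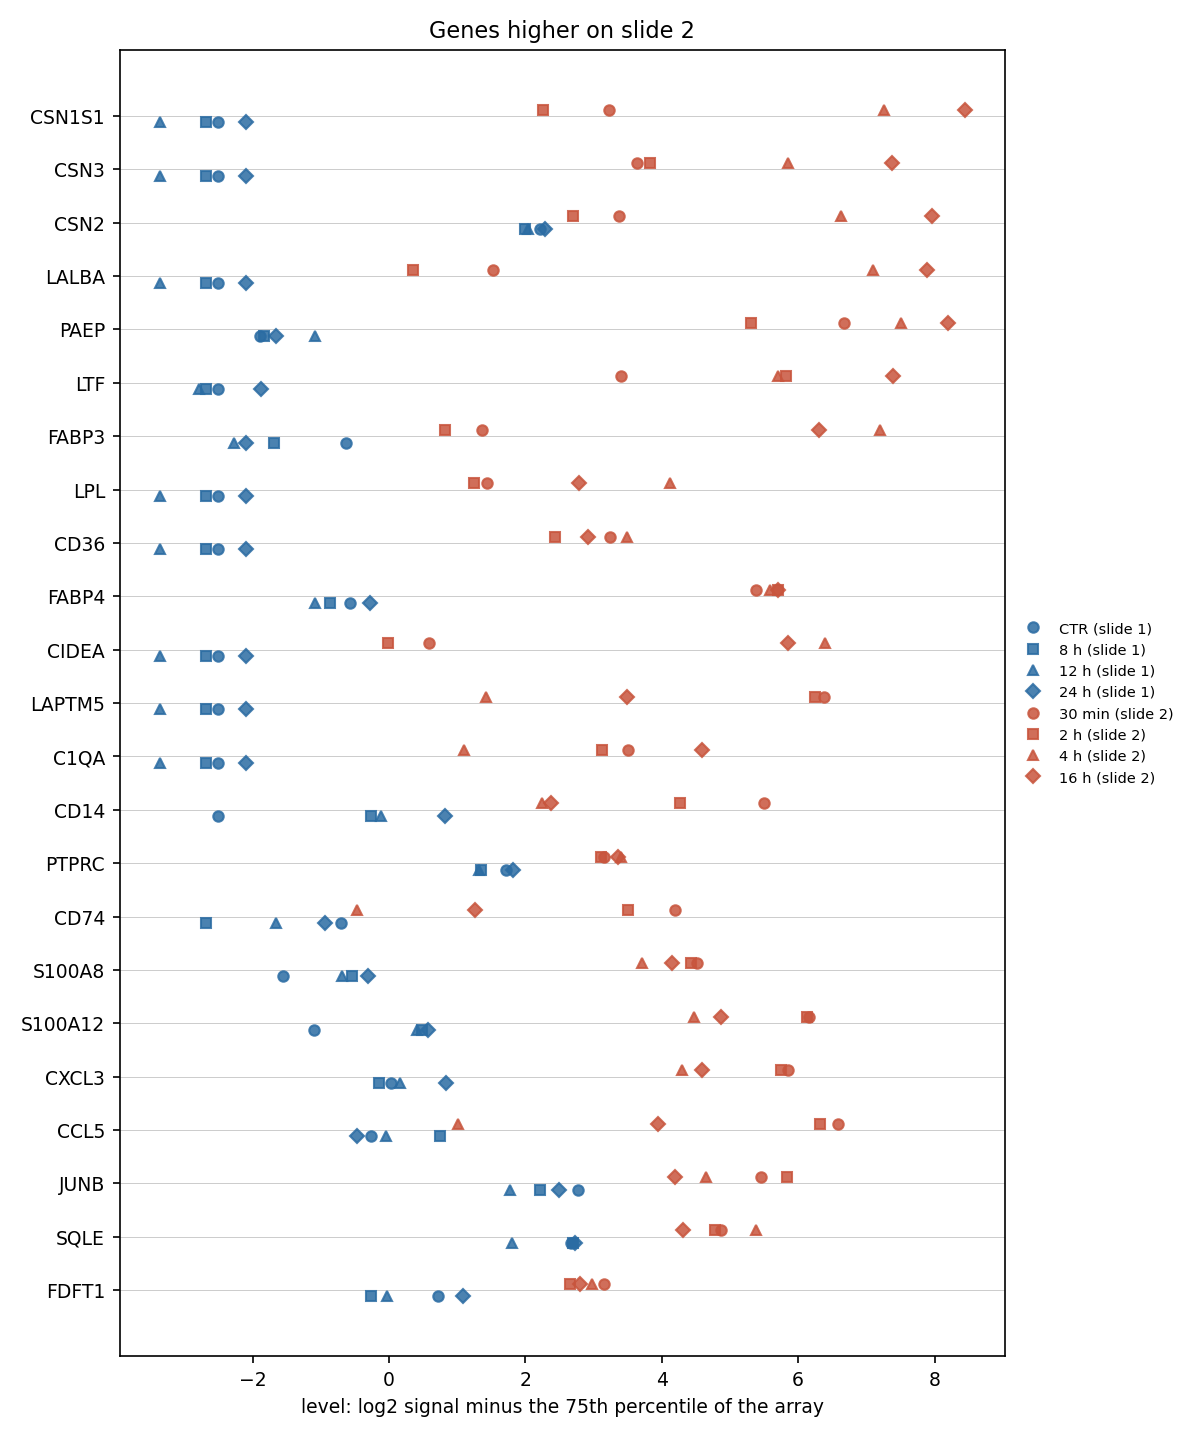
Level of 23 genes higher on slide 2 on each of the 8 arrays (red, slide 2; blue, slide 1), as log2 signal relative to the 75th percentile of the array. Points that stack at -2.52, -2.69, -3.36 and -2.10 are the shared lowest levels of slide 1 arrays and are not measured values. Milk genes such as CSN1S1 were highest at 4 h and 16 h, LAPTM5 and CCL5 at 30 min and 2 h, and C1QA at 16 h.

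Leukocyte genes gave a mixed picture, and most of the list did not pass the filter. Of the 45 leukocyte genes on the array 19 were tested, with 9 higher on slide 2 (PTPRC, LAPTM5, CD52, SPI1, CSF1R, CD14, C1QA, C1QB and C1QC), 4 higher on slide 1 (CD4, CD79A, RAC2 and VAV1) and 6 overlapping. Of the 8 well above background on both slides, 2 were higher on each slide, and the other 7 of the 9 were tested through slide 2 only. Within slide 2, 5 of the 9 had 30 min and 2 h above 4 h and 16 h, and 1 had the opposite order. The number of leukocyte genes detected per array ran from 9 to 14 on slide 1 and from 19 to 38 on slide 2, and their summed signal, in units of the 75th percentile, from 63.7 to 98.4 and from 85.9 to 564, so the sums overlapped. The part of immune cells in these differences was not tested.

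LAPTM5, a lysosomal membrane protein of blood cells, was at the lowest level on the 4 slide 1 arrays, with levels of 6.37, 6.24, 1.43 and 3.49 on slide 2, at least 28.9-fold higher on slide 2. PTPRC, which encodes the pan-leukocyte antigen CD45, had levels of 1.72, 1.34, 1.32 and 1.82 on slide 1 and of 3.15, 3.1, 3.40 and 3.36 on slide 2, a 3.25-fold difference with narrow spread on both sides. C1QA, a complement gene of macrophages, was at least 11.7-fold higher on slide 2. The monocyte receptor gene CD14 was at least 12.4-fold higher, but its probe lay in the dark patch of CTR. CD3E, of the T cell receptor complex, was at the lowest level on all of slide 1 and had levels of 2.1, 1.26, -2.79 and 0.17 on slide 2. It was measured on 3 slide 2 arrays but not at 4 h, and so was not tested.

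The genes VAV1 and CD4, which sit in the leukocyte list, went the other way. VAV1, encoding a signalling protein of blood cells, had levels of 2.64, 2.12, 1.88 and 2.15 on slide 1 and of -0.42, -1.0, -0.30 and 0.79 on slide 2, at least 4.82-fold lower with 3 slide 2 arrays measuring it. For CD4 the slides were separated by a gap of 0.10 only. Neither gene had another tested probe.

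Among 5 tested genes of major histocompatibility complex class II, which presents peptides to T helper cells, 2 (CD74 and BOLA-DQA1) were higher on slide 2 and 0 on slide 1. The level of BOLA-DQA1 was 0.33, -0.30, -0.81 and 0.18 on slide 1 and 3.49, 2.76, 1.03 and 3.81 on slide 2, at least 7.52-fold higher with 3 slide 1 arrays measuring it. The brightest probe of BOLA-DRA overlapped, since it read 7.0 at 8 h and was at the lowest level on the other slide 1 arrays, while its 2 other tested probes were higher on slide 2. Its slide 1 arrays therefore disagreed at that probe.

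The markers of other cell types gave few tested genes. Of 12 adipocyte genes 6 were tested and 4 (FABP4, CIDEA, CFD and PPARG) were higher on slide 2, all 4 of them tested through slide 2 only. Both adipocyte genes well above background on both slides overlapped, and ADIPOQ, PLIN1 and LEP, which define the cell type, were measured on 0 arrays. FABP4 had levels of -0.57, -0.86, -1.09 and -0.28 on slide 1 and of 5.38, 5.71, 5.59 and 5.70 on slide 2, at least 66.8-fold higher and even across slide 2. PPARG, and the leukocyte gene CD52 and VWF, overlapped under normexp. Of 20 endothelial genes 3 were tested and 1 (VWF) was higher on slide 2, and the defining PECAM1, CDH5 and KDR did not pass the filter. Of 9 genes of plasma cells and antibody transport 4 were tested and 1 (PRDM1) was higher on slide 2. Of 9 red blood cell genes 2 were tested and 1 (AHSP) was higher on slide 1, with slide 2 at its lowest levels on all 4 arrays. VWF and PRDM1 were tested through slide 2 only, and AHSP through slide 1 only.

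By the deposited values, defence and chemokine genes were higher on slide 2 in most of the tested members. Of 7 tested mammary defence genes 5 (SAA3, M-SAA3.2, S100A8, S100A9 and S100A12) were higher on slide 2 and 0 on slide 1. S100A12, a calcium-binding protein of neutrophils and monocytes, had levels of -1.10, 0.49, 0.41 and 0.56 on slide 1 and of 6.16, 6.13, 4.47 and 4.86 on slide 2, at least 36.5-fold higher with CTR, which did not measure it, at its detection limit. SAA3, an acute phase gene of the mammary gland, was measured on all 8 arrays and was 3.70-fold higher, and its 4 other tested probes separated the same way. Of 6 tested cytokine and chemokine genes 5 were higher on slide 2. In scanner intensities with 30 min included, 0 of these 6 and 4 of the 7 defence genes were higher on slide 2. A further 17 cytokine and chemokine genes, IL1B, TNF and IL6 among them, did not pass the filter. On slide 2 the filter asks for signal well above background at 2 h, 4 h and 16 h alike.

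CXCL3, a chemokine that attracts neutrophils, had levels of 0.03, -0.15, 0.16 and 0.84 on slide 1 and of 5.85, 5.74, 4.30 and 4.59 on slide 2, all measured, a 29.8-fold difference. CCL5, which attracts T cells and monocytes, had levels of -0.26, 0.75, -0.05 and -0.47 on slide 1 and of 6.59, 6.32, 1.00 and 3.95 on slide 2. For CCL5 the 4 h array lay near the slide 1 arrays, with a gap of 0.25 while the means differed by at least 19.7-fold, with 2 slide 1 arrays measuring it. All 5 chemokine and cytokine genes and all 4 immediate early genes higher on slide 2 had 30 min and 2 h above 4 h and 16 h, the order opposite to that of the milk genes.

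Immediate early genes, which respond to stimuli within minutes, were well above background on both slides in all 18 tested members, and 4 of them (JUNB, IER2, DUSP1 and BTG2) were higher on slide 2 with 0 higher on slide 1. JUNB, an AP-1 subunit, had levels of 2.77, 2.21, 1.77 and 2.49 on slide 1 and of 5.45, 5.83, 4.65 and 4.19 on slide 2, a 6.58-fold difference. DUSP1, a phosphatase of MAP kinases, was 2.82-fold higher. FOS, FOSB, JUN, EGR1 and ATF3 were among the 14 that overlapped, and 77.5% of all probes well above background on both slides overlapped as well. The 4 of 18 higher on slide 2 stood beside 11.3% of all genes well above background on both slides.

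Luminal epithelial genes did not lie toward either slide, with 3 of 18 tested genes higher on slide 2, 4 higher on slide 1 and 11 overlapping. KRT8, a keratin of simple and luminal epithelium, had levels of 6.99, 6.74, 6.38 and 6.54 on slide 1 and of 3.28, 4.37, 4.15 and 4.69 on slide 2, 5.81-fold lower on slide 2, and its 3 other tested probes separated the same way. KRT7, another simple keratin, was 2.99-fold lower on slide 2. The prolactin pathway's transcription factors STAT5A and STAT5B went opposite ways. STAT5B was 1.72-fold higher on slide 2, and STAT5A, tested through slide 1 only, was at least 2.54-fold lower on slide 2, with levels of 0.18, 0.58, 0.42 and 0.04 on slide 1 and of -2.58, -3.50, -3.80 and -2.41 on slide 2. ELF5, measured on 2 slide 2 arrays and 0 slide 1 arrays, and PRLR, measured on 0 arrays, did not pass the filter. The epithelial adhesion genes EPCAM (2.34 ± 0.78 on slide 1 and 2.49 ± 0.78 on slide 2, SD, n = 4 arrays of different conditions) and CDH1 (2.82 ± 0.44 and 3.51 ± 0.36) overlapped, though CDH1 was higher on slide 2 in scanner intensities without 30 min. The brightest probe of KRT18, the keratin stained in these cultures, was well above background on 0 slide 1 arrays and 2 slide 2 arrays and was not tested.

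Basal keratins were split. KRT15 had levels of 3.80, 4.56, 4.29 and 4.03 on slide 1 and of 6.32, 6.46, 6.90 and 6.84 on slide 2, a 5.51-fold difference. KRT14 was 10.9-fold higher on slide 2, but it lay in the dark patch of CTR, was saturated on 4 arrays, and its other tested probe overlapped. KRT5, the usual partner of KRT14, was 1.81-fold lower on slide 2 with a gap of 0.06, by a probe saturated on 1 array, and overlapped under normexp background correction. SFN, encoding the epithelial 14-3-3 sigma protein, was 3.24-fold higher on slide 2. The 1 other tested probe of SFN overlapped, and so did that of KRT5. Of the 13 tested myoepithelial and basal genes 9 overlapped, ACTA2 among them, beside 72.2% of all tested probes.

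Cytoskeletal genes lay toward slide 1 by small gaps. Of 26 tested stress fibre and contractile genes, all well above background on both slides, 10 were higher on slide 1. Of the rest, 1 (TLN1) was higher on slide 2 and 15 overlapped. The 3 other tested probes of TLN1 overlapped. TPM1, which encodes a tropomyosin of actin filaments, had levels of 6.70, 5.97, 5.93 and 6.47 on slide 1 and of 4.02, 4.03, 4.61 and 5.10 on slide 2, 3.55-fold lower on slide 2, and 6 of its 7 other tested probes separated the same way. TAGLN, the smooth muscle actin-binding gene transgelin, had levels of 7.43, 7.06, 6.47 and 6.79 on slide 1 and of 4.73, 4.47, 5.36 and 6.22 on slide 2, 3.34-fold lower. VIM, the mesenchymal intermediate filament stained in the cultures, was 1.93-fold lower with a gap of 0.01 and overlapped under quantile normalization and under normexp. The 4 other tested probes of VIM overlapped. The count of 10 depended on the scaling, with 16 under quantile normalization and 6 under normexp, and it was 0 with a gap of at least 1, where YAP targets and basement membrane genes each had 2.

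Targets of YAP and serum response factor were higher on slide 1 in 8 of 13 tested genes and on slide 2 in 1, IGFBP3. ANKRD1, a nuclear ankyrin-repeat gene, had levels of 6.81, 5.90, 6.14 and 6.06 on slide 1 and of 4.35, 4.20, 4.63 and 2.87 on slide 2, 4.64-fold lower on slide 2, and its 2 other tested probes separated the same way. CYR61, which encodes a secreted matrix protein, had levels of 3.76, 3.52, 3.28 and 3.53 on slide 1 and of 1.53, 0.89, 1.60 and 1.70 on slide 2, 4.26-fold lower. For CYR61 both sides were narrow, with a gap of 1.58. F3, encoding tissue factor, was 2.83-fold lower and CTGF, a relative of CYR61, 2.45-fold lower on slide 2. The count of 8 was 9 under quantile normalization and 5 under normexp.

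Basement membrane genes were higher on slide 1 in 6 of 14 tested genes (COL4A1, LAMA4, LAMA5, LAMB1, LAMB3 and LAMC1) and on slide 2 in 0. Among the 11 well above background on both slides the counts were 4 and 0. The median log2 value of these 11, relative to each probe's own median over 8 arrays, was 0.08, 0.29, 0.10 and 0.20 on slide 1. On slide 2 it was -0.84, -0.98, 0.28 and 0.13, so 30 min and 2 h lay below slide 1 while 4 h and 16 h lay within its range. COL4A1 and LAMA4 were tested through slide 1 only. COL4A1, a chain of type IV collagen, had levels of 3.27, 2.75, 2.50 and 2.64 on slide 1 and of -2.58, -2.11, -0.36 and 1.30 on slide 2, at least 8.16-fold lower. Of the 2 slide 2 arrays that did not measure it, 30 min stood at its detection limit and 2 h at its measured level, which was higher than its limit. LAMB1, a laminin chain, was measured on all 8 arrays and was 2.66-fold lower on slide 2. The count of 6 was 7 under quantile normalization and 3 under normexp.

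Fibrillar collagen and stromal genes, which fibroblasts express, were higher on slide 1 in 4 of 12 tested genes (COL1A1, COL3A1, BGN and FSTL1) and on slide 2 in 1, though the 1 other tested probe of BGN was higher on slide 2. COL1A1 had levels of 1.64, 1.23, 1.29 and 1.58 on slide 1 and of -1.97, -1.06, -0.27 and 0.24 on slide 2, at least 3.14-fold lower with 3 slide 2 arrays measuring it, and none of its 4 other probes could be tested. S100A4, a calcium-binding protein of motile and immune cells, had levels of 3.28, 3.06, 2.55 and 2.85 on slide 1 and of 6.69, 6.46, 5.74 and 6.98 on slide 2, 11.6-fold higher on slide 2. PDGFRA, PDGFRB, THY1, LUM, TWIST1 and COL1A2 were among the 17 genes that did not pass the filter. COL1A2 had levels of -2.52, -1.97, -3.12 and -2.10 on slide 1 and of -3.50, -4.31, -0.93 and 2.92 on slide 2. It was measured on 0 slide 1 arrays and 2 slide 2 arrays. Of the 29 genes of this list on the array, 10 to 12 were detected per slide 1 array and 6 to 19 per slide 2 array. Their summed signal, in the units used for leukocyte genes, ran from 223 to 388 on slide 1 and from 197 to 397 on slide 2. Both ranges thus overlapped.

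**Figure D5:**
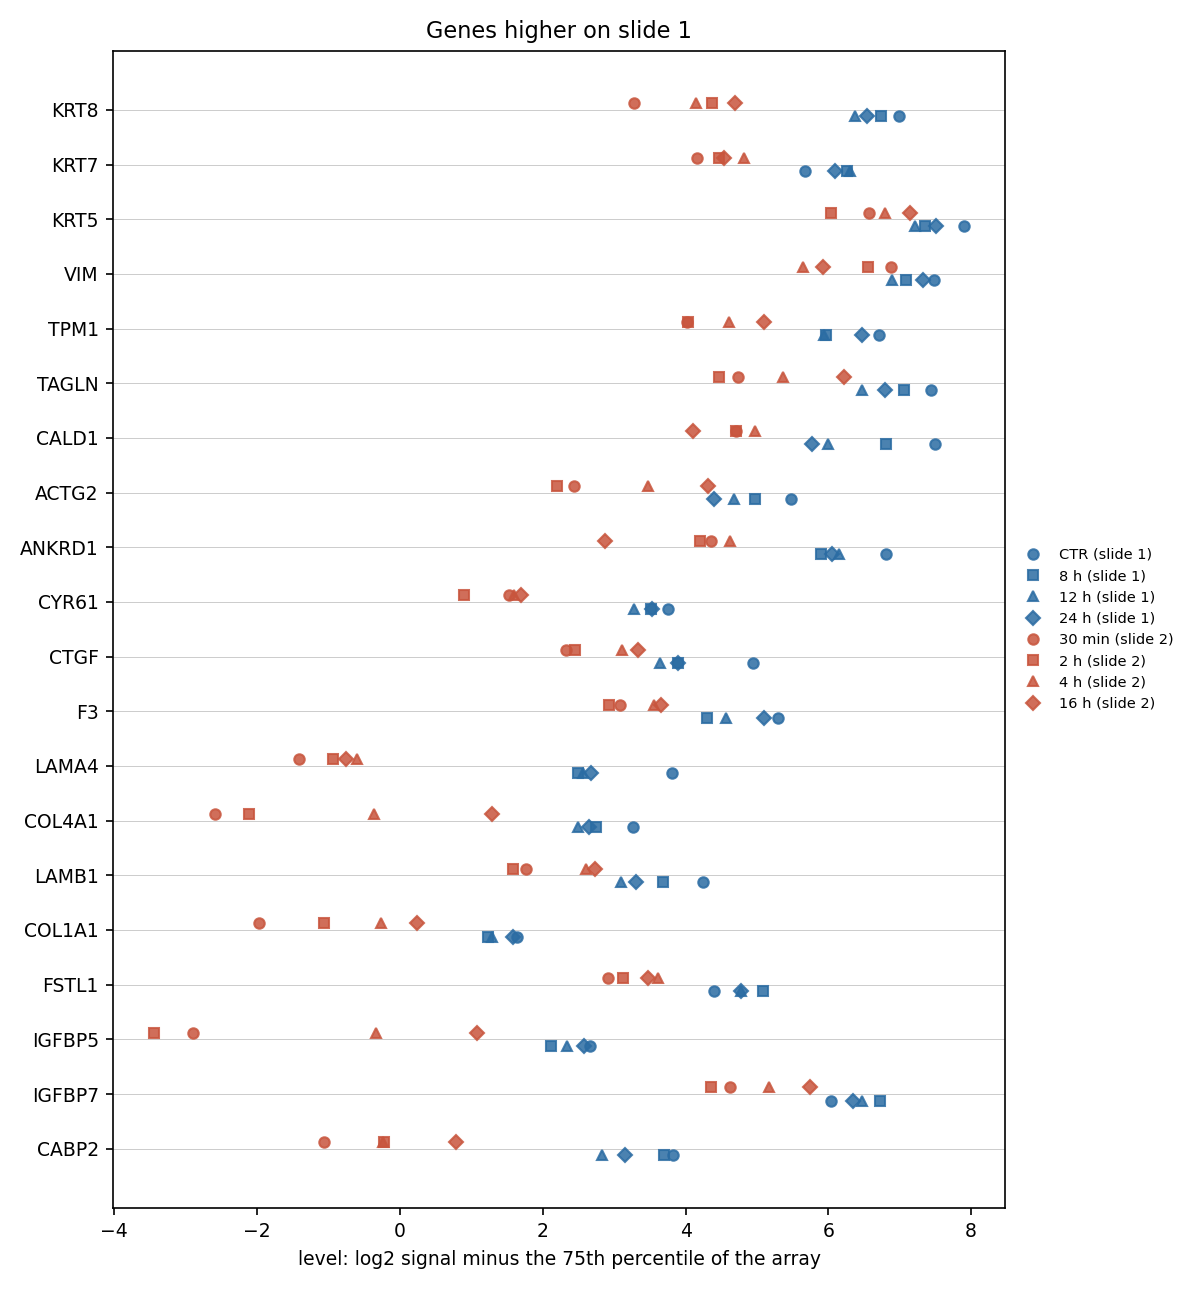
Level of 20 genes higher on slide 1 on each of the 8 arrays (red, slide 2; blue, slide 1), as log2 signal relative to the 75th percentile of the array. KRT8 and CYR61, measured on all 8 arrays, were separated widely, and VIM, KRT5 and ACTG2 by 0.01, 0.06 and 0.08. LAMA4, COL4A1 and IGFBP5 were tested through slide 1 only and were each measured on 2 slide 2 arrays.

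The IGF binding proteins, which hold insulin-like growth factors outside cells, were divided, with IGFBP3 and IGFBP4 higher on slide 2 and IGFBP5 and IGFBP7 higher on slide 1 among 6 tested. IGFBP5 had levels of 2.66, 2.11, 2.34 and 2.58 on slide 1 and of -2.89, -3.44, -0.33 and 1.09 on slide 2, at least 6.69-fold lower with the 2 slide 2 arrays that did not measure it at their detection limits. IGFBP3 had levels of 5.29, 6.13, 5.38 and 5.82 on slide 1 and of 7.35, 7.61, 7.50 and 7.20 on slide 2, 3.39-fold higher by a probe saturated on 2 arrays, and its 4 other tested probes separated the same way.

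Cholesterol synthesis had been placed among the culture lists and lay toward slide 2. Of 19 tested genes 10 were higher on slide 2 (MVK, MVD, IDI1, FDPS, FDFT1 and SQLE among them), all 10 well above background on both slides, and 1 (SREBF2) was higher on slide 1. SREBF2 overlapped under normexp and with the position trend removed, and its 1 other tested probe was higher on slide 2. SQLE, the squalene epoxidase, had levels of 2.67, 2.70, 1.80 and 2.72 on slide 1 and of 4.86, 4.78, 5.38 and 4.32 on slide 2, a 5.15-fold difference. FDFT1, the squalene synthase, had levels of 0.71, -0.27, -0.03 and 1.08 on slide 1 and of 3.15, 2.65, 2.97 and 2.80 on slide 2, a 5.74-fold difference. The median difference over the 18 genes well above background on both slides was 1.27 on the log2 scale. HMGCS1 and DHCR7 overlapped.

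Cell cycle, heat shock and housekeeping genes overlapped for the most part, as did 72.2% of all tested probes. In the cell cycle list 20 of 21 tested genes overlapped, and TYMS, of thymidylate synthesis, was higher on slide 1. In the heat shock list 16 of 18 overlapped, and HSPA4 and DNAJB4 were higher on slide 1. TYMS and HSPA4 overlapped under normexp. The 1 other tested probe of HSPA4 overlapped in the deposited values. HSPA1A, the inducible HSP70, had levels of 2.46, 7.02, 5.41 and 1.03 on slide 1 and of 5.88, 5.30, 4.27 and 3.15 on slide 2, so slide 1 held both its highest and its lowest arrays. Among 19 tested housekeeping genes 16 overlapped, including RPL4, EEF1A1 and RPS23, the reference genes of the study's qPCR. However, EEF1A1 was higher on slide 2 under quantile normalization and normexp. Of the other tested probes, 2 of 4 for RPL4 were higher on slide 1 and 1 of 8 for EEF1A1 was higher on slide 2. RPS15A and PGK1 were higher on slide 1 and SDHA on slide 2, each by less than 2-fold. SDHA and PGK1 overlapped under quantile normalization and normexp, and the 3 other tested probes of SDHA overlapped. RPS23 was higher on slide 1 when arrays were centred on their median.

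The genes with the widest gaps among probes well above background on both slides lay mostly outside the lists. On the slide 2 side KRT78, a keratin of stratified epithelium, had levels of -0.17, -0.35, -0.84 and -2.10 on slide 1 and of 3.32, 3.46, 4.05 and 5.34 on slide 2, at least 20.1-fold higher with 24 h, which did not measure it, at its detection limit. The mucin gene MUC1 was 8.42-fold higher, LYPD3, a surface protein of keratinocytes, 8.12-fold and QSOX1, a sulfhydryl oxidase, at least 12.0-fold. PHGR1 was 8.85-fold higher, MALL 8.56-fold, PDXK, the pyridoxal kinase, 5.86-fold and the defensin gene DEFB 6.71-fold. The 1 other tested probe of PDXK overlapped, and 1 of the 2 other tested probes of MUC1 was higher on slide 2. On the slide 1 side CABP2, a calcium-binding protein gene, had levels of 3.83, 3.70, 2.83 and 3.15 on slide 1 and of -1.06, -0.22, -0.23 and 0.78 on slide 2, at least 9.45-fold lower with 3 slide 2 arrays measuring it. PTN, encoding the growth factor pleiotrophin, was 5.20-fold lower, HS3ST2, a heparan sulfate sulfotransferase, 4.67-fold with its 3 other tested probes the same way, and the keratin KRT86 3.68-fold. PARK2, TMEM59L, FBRS, SLC2A5, ZCCHC12 and CYP11B1 were lower on slide 2 as well and had 0 other tested probes, and PARK2 was 6.54-fold and TMEM59L 5.70-fold lower.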

How the data were processed

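The authors hybridised Cy3-labelled RNA to bovine 4x44K arrays, 1 per condition, and deposited the intensity of each spot from Feature Extraction 9.5.3.1. They also deposited log2 values from GeneSpring GX, which by comparison with the scanner files had the array's 75th percentile subtracted and each probe's median over the 8 arrays set to zero (median 0 in all 43713 rows). The log2 values gave the order of arrays at each probe. A probe constant taken from the intensities of the 7 arrays other than 30 min turned them into levels.

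Probes were tested when well above background on 3 or more slide 1 arrays or on all 3 slide 2 arrays other than 30 min. At 30 min a gene counted as measured above a level of 0.22, the largest of the other arrays' detection limits. The brightest probe stood for a gene. Folds are differences of mean levels. Dark patches were positions where bright probes within 10 spots were lower by 1 (log2) or more in the median, over at least 5 probes.

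The slide comparison, its members and all gene lists were chosen with earlier results of these data known. Named were up to 4 genes per list and direction with the largest difference, the 12 largest gaps per direction, and fixed marker and reference genes. The count script was tested on simulated data. Python 3.11.15, R 4.3.3 and limma 3.58.1 were used. Alternatives were other filters, scanner intensities, normexp (offset 50, with 30 min carried over from the log2 values), quantile normalization, median centring, dark patches left out, a gap of 1, distinct gene names, limma at 5% (Benjamini-Hochberg), arrays left out, and 16 h against 12 h and 24 h. Promoter motifs were not analysed here.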

Additional observations from a re-analysis of the deposited data

How the results depend on the processing

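The counts were 1536 probes higher on slide 2, 1933 higher on slide 1, 54 tissue list genes higher on slide 2 and 33 culture list genes higher on slide 1. Without a filter on dim probes 3465 were higher on slide 1. With probes well above background on both slides, the first 3 counts were 997, 1156 and 23, and on all 7 arrays other than 30 min 868, 1153 and 20, by construction of the filter. With the 30 min scanner intensities the 4 counts were 802, 914, 34 and 17. Under normexp 1145 probes were higher on slide 1, and the cause was not tested. With a gap of at least 1 they were 325, 264, 33 and 5, and for 16 h against 12 h and 24 h, with fewer arrays, 5882, 4877, 92 and 55. Leaving out 1 array at a time gave 1582 to 1882, 1976 to 2596, 55 to 59 and 33 to 46. Under the rule, leaving out an array can keep or raise a count but cannot lower it. The other alternatives stayed within 1.5 times, with limma at 1120, 1512, 53 and 31, though limma takes 4 different conditions of a slide as replicates. Of the separated probes 44.3% were higher on slide 2, against 61.1% under normexp and 34.1% without a filter. No paired analysis was possible because each condition has 1 array. Slide could not be a block, since it is the comparison. Signal over background limits a gene that was dim on all 4 arrays of a slide to a bound.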
